A study of Arabidopsis thaliana with 3 samples.

Results

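Glucosinolates are sulfur-rich defence compounds of the cabbage order, and 35 genes of their synthesis, transport and breakdown in Arabidopsis thaliana were followed in flower buds. The members were chosen from published pathway roles by locus identifier, with earlier results of the same comparison known, among them the low value of ESM1. Their deposited fold changes and p-values are therefore given as a description of 1 comparison of 19777 genes, in which 24 of the 35 members had a row. Poly(A) RNA was taken from the inflorescence meristem with its young buds in 3 independent lines, 1 library per line. The lines carry the sep1 sep2 sep3 triple mutation and express SEP3Δtet. The sample labels give upper bud stages of 10 to 11, 10 to 12 and 10 to 13 for lines 1, 2 and 3, while the design text gives 10 to 11 for all; the series title calls the protein a splice variant of the MADS transcription factor SEPALLATA3. The authors compared these lines with the sep1 sep2 sep3 triple mutant without the transgene, whose libraries were not analysed here one by one. The promoter of the transgene, the number of triple mutant libraries and the level in each library are not stated in the sources used here. Members are thus described by 1 fold change each, and depth per library is unknown.

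Synthesis starts from methionine in the aliphatic branch and from tryptophan in the indolic branch. Methionine is first lengthened by a chain elongation cycle. In the core steps, CYP79 and CYP83 enzymes oxidise the amino acid, sulfur is added from glutathione, and a glucosyltransferase and a sulfotransferase finish the molecule, whose side chain may then be modified. On wounding, myrosinases (thioglucosidases) release an unstable aglycone, and specifier proteins set whether isothiocyanates or nitriles form.

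The largest change among the members was that of ESM1 (epithiospecifier modifier 1), whose product favours isothiocyanates over nitriles. It fell 4.22-fold in the SEP3Δtet lines relative to the triple mutant (log2 fold change -2.08, adjusted p = 0.0011 per the authors' deposited table). ESP, the epithiospecifier gene whose product favours nitriles, fell 1.36-fold, as did the glucosinolate transporter gene GTR1, also 1.36-fold per the authors' deposited table. AOP2, a locus of side-chain modification, fell 1.67-fold per the authors' deposited table. Both myrosinase genes, TGG1 and TGG2, and all 11 measured core synthesis genes did not pass the test. In RNA of whole buds, fewer cells of a type and less RNA per cell cannot be told apart.

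Of the 24 members with a row, 4 were called lower and 0 higher at an adjusted p of 0.05 by the edgeR F test of the authors' deposited table, and 20 were not called. Over all 19777 genes the same threshold called 5.88% lower and 11.6% higher. At an unadjusted p of 0.05, 7 members were lower and 0 higher, where 12.6% of all genes were lower and 17.1% higher per the authors' deposited table. The sign was negative for 18 members and positive for 6, with a median log2 fold change of -0.14, against 50.1% negative and a median of -0.0009 over all genes per the authors' deposited table. An absolute log2 fold change under 0.5 was held by 21 of the 24 members (87.5%) and by 80.9% of all genes per the authors' deposited table. For each gene a 95% interval was derived from its fold change, F and p. It lay wholly between -1 and 1 on the log2 scale for 20 of the 24 members (83.3%) and for 78.9% of all genes. At an adjusted p of 0.01, 1 member, ESM1, was still called, and with Bonferroni adjustment 0 were.

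**Figure D1:**
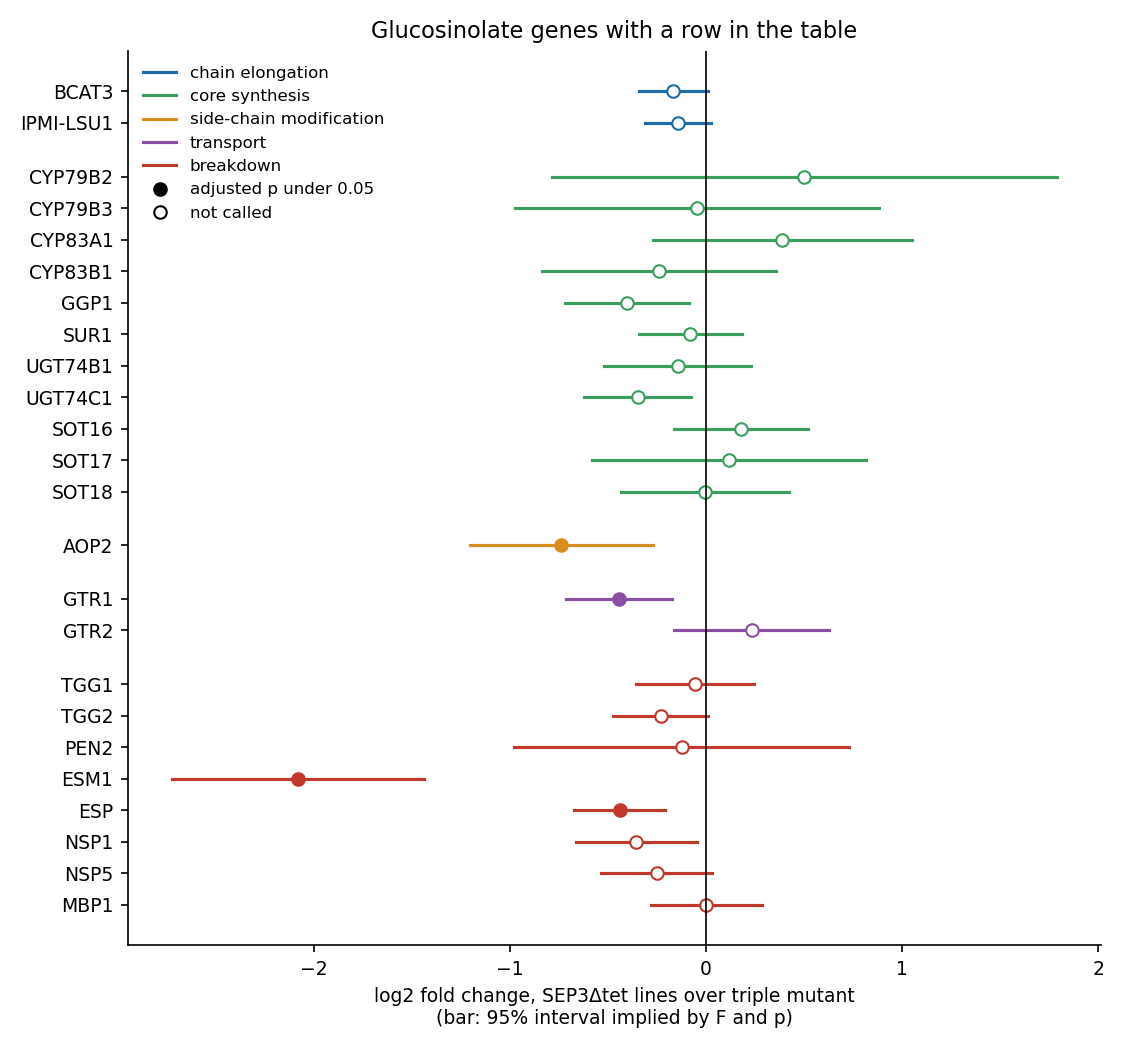
Log2 fold change (SEP3Δtet lines over the triple mutant) of the 24 members with a row, ordered by role; bars are the 95% intervals implied by F and p, and filled points have an adjusted p under 0.05. ESM1, at -2.08, lies apart from the other members, whose values run from -0.74 to 0.50.

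**Figure D2:**
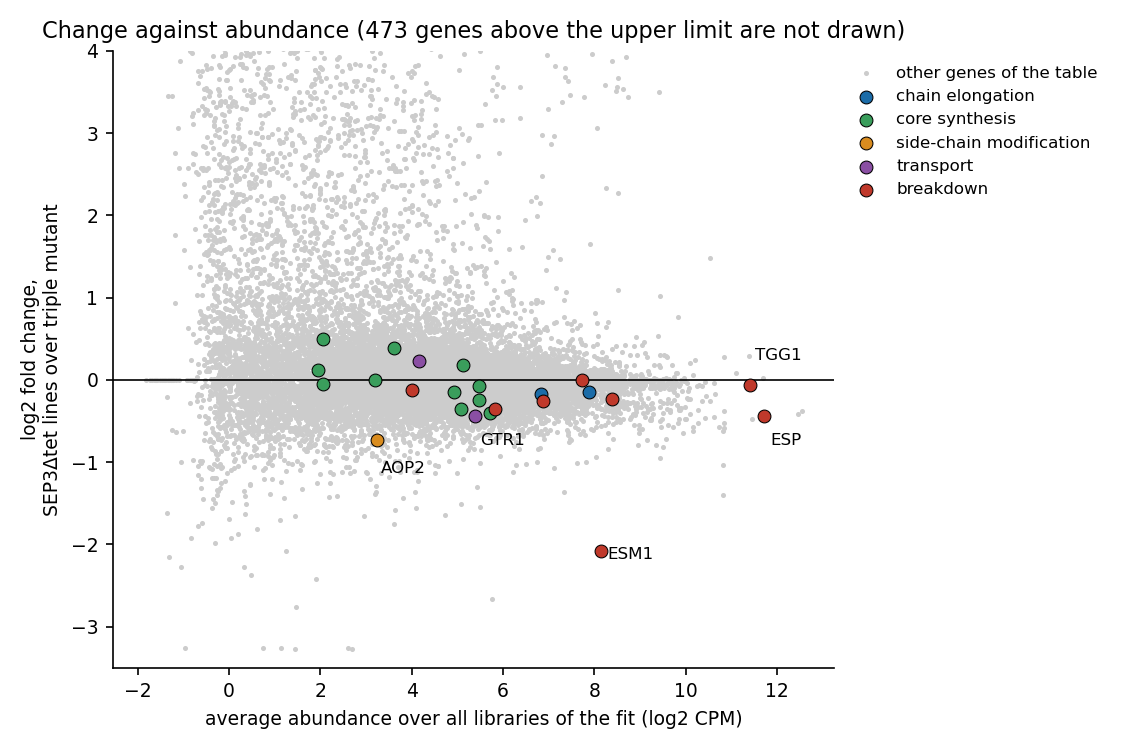
Log2 fold change against average abundance (log2 CPM, all libraries) for all genes of the table, in grey, and for the members, coloured by role; 473 genes with a log2 fold change above 4 are not drawn. ESM1 combines a high abundance (8.14 log2 CPM) with a low fold change, while ESP and TGG1 lie at the right edge.

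The sequences just upstream of ESM1 and ESP are shown because these are the breakdown genes that fell. Those of CYP83A1, IPMI-LSU1 and SUR1 are shown because they hold both a G-box and an AC element, as does BAT5, which had no row, although their RNA did not pass the test. Each runs from 250 bases before the annotated gene start to 50 bases after it, in RefSeq's TAIR10.1 assembly, and capitals mark motif matches. ESM1 is read from chr3:4729149-4729448 on the plus strand, ESP from chr1:20173900-20174199 on the minus strand, CYP83A1 from chr4:7992380-7992679 on the minus strand, IPMI-LSU1 from chr4:7807935-7808234 on the minus strand and SUR1 from chr2:8880391-8880690 on the minus strand.
ESM1: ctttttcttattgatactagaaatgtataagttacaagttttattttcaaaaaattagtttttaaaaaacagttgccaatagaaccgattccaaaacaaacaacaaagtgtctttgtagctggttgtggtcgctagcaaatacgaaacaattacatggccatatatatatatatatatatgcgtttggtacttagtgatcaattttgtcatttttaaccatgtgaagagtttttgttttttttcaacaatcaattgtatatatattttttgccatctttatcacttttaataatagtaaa
ESP: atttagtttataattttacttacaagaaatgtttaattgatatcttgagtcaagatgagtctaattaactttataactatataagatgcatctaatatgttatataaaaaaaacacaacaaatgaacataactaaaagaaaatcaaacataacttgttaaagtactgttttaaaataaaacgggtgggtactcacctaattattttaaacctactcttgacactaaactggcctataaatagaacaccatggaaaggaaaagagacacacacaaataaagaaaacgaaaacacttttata
CYP83A1: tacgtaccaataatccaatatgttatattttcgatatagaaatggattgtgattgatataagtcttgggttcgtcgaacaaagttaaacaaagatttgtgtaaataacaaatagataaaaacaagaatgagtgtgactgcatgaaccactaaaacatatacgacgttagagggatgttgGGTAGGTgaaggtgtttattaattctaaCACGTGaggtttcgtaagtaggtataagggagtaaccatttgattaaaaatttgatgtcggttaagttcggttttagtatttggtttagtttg
IPMI-LSU1: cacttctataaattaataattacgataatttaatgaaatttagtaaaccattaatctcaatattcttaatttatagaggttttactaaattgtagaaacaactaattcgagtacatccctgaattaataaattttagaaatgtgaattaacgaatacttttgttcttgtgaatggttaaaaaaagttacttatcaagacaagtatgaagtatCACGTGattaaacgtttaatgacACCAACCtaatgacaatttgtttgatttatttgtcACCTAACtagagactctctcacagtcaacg
SUR1: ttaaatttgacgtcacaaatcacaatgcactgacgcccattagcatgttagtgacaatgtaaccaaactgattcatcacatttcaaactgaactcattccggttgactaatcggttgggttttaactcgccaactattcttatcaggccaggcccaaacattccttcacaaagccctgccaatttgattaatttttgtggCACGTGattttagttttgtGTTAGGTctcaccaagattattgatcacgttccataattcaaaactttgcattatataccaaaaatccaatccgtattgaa

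The motifs searched on both strands were the G-box CACGTG, which MYC-type bHLH factors bind, the AC element, searched as ACCTACC and also in its variants, ACCAACC on the one hand and ACCTAAC on the other, which R2R3 MYB factors bind, and the CArG box, which MADS factors bind. The CArG box was searched only as CCWWWWWWGG, with W for A or T, and looser forms were not searched. No match of these motifs overlaps another in the sequences shown. An AC element stood in 13 of the 35 member windows (37.1%), against 7.29% of the 27443 windows of protein-coding genes on the nuclear chromosomes. All 13 belong to synthesis genes: 8 of 13 core genes, 4 of 9 chain elongation genes and 1 of 3 side-chain genes held one, and 0 of the 10 transport and breakdown genes. A G-box stood in 5 of 35 windows (14.3%), against 7.68% of all windows, and a CArG box in 0 of 35, against 3.05%. ESM1, ESP, GTR1 and AOP2, the members that fell, held no match to the 3 motifs as searched in this window. Each motif is also absent from most windows of all genes, so its absence does not set these members apart. These matches describe letters only, and their bearing on RNA levels was not tested.

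Among the breakdown genes, ESM1 (AT3G14210) stood apart. Its gene spans chromosome 3 from 4729399 to 4731847 on the plus strand in TAIR10.1, with 5 exons in the transcript of longest coding sequence. In the authors' deposited table its average abundance was 8.14 log2 CPM and its log2 fold change -2.08 (F = 54.5, adjusted p = 0.0011). The interval derived for it ran from -2.72 to -1.44, and it held rank 6 of 1163 lower calls by size of decrease. Its implied standard error, 0.28, was wide for its abundance, at percentile 97.9 of the genes nearest in abundance. F and p give ESM1 8.62 denominator degrees of freedom, against 11.85 for most genes. The level in each of the 3 lines is not known.

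ESP (AT1G54040, chromosome 1 from 20170715 to 20173949, minus strand) was the most abundant member per length, at 11.25 log2 CPM per kb of transcript. Its percentile among all genes rounded to 100, although it was not the highest of them. Its log2 fold change was -0.44 (F = 17.5, adjusted p = 0.0126) per the authors' deposited table, with a derived interval from -0.67 to -0.21. Although both genes fell, the decrease of ESM1 was larger, and their intervals do not overlap; the difference between the genes was not tested. NSP1 and NSP5, nitrile specifier genes, stood at -0.35 (adjusted p = 0.110) and -0.25 (adjusted p = 0.222) per the authors' deposited table and did not pass the test. The derived interval of NSP1 ran from -0.66 to -0.05 and that of NSP5 from -0.53 to 0.03.

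The classical myrosinase genes TGG1 (AT5G26000) and TGG2 (AT5G25980) were among the abundant members, at 10.50 and 7.40 log2 CPM per kb. TGG1 had a log2 fold change of -0.06 (adjusted p = 0.835) and TGG2 one of -0.23 (adjusted p = 0.192) per the authors' deposited table. The derived intervals, -0.36 to 0.24 for TGG1 and -0.48 to 0.01 for TGG2, leave room for decreases of the size seen in ESP for TGG2 but not for TGG1. PEN2, an atypical myrosinase gene that acts on indolic glucosinolates, stood at -0.12 (adjusted p = 0.870), and MBP1, which encodes a myrosinase-binding protein, at 0.002 (adjusted p = 0.997) per the authors' deposited table. PEN2 was measured loosely, with an interval from -0.98 to 0.73, and MBP1 more tightly, from -0.28 to 0.28. In all, 2 of the 8 breakdown genes fell, 0 rose and 6 were not called (75%, against 82.5% of all genes) per the authors' deposited table. At an unadjusted p of 0.05, 3 were lower (NSP1 besides ESM1 and ESP) and 0 higher, where 12.6% of all genes were lower and 17.1% higher. The median log2 fold change of the breakdown genes was -0.24.

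Of the transporter pair, GTR1 passed the test and GTR2 did not. GTR1 (AT3G47960) imports glucosinolates into cells with its relative GTR2 (AT5G62680) and loads them into the phloem. GTR1 had a log2 fold change of -0.44 (adjusted p = 0.0279) and GTR2 one of 0.23 (adjusted p = 0.444) per the authors' deposited table. Their derived intervals, -0.71 to -0.17 for GTR1 and -0.16 to 0.63 for GTR2, lie side by side without overlap. The difference between both genes was not tested. GTR1 shares 58 bp with the gene HA4 on the opposite strand and 324 bp with an antisense lncRNA gene, and HA4 was called higher (0.55, adjusted p = 0.0085) per the authors' deposited table. GTR2 also shares 73 bp with a protein-coding gene on the opposite strand. Whether counting used strand is not stated in the sources used here, so reads in these shared stretches are uncertain.

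AOP2 (AT4G03060) was the 1 side-chain member of 3 with a row. AOP2 enzymes convert methylsulfinylalkyl to alkenyl glucosinolates in accessions with a functional allele, and the Columbia annotation lists this locus as a transcribed pseudogene. Its log2 fold change was -0.74 (F = 11.8, adjusted p = 0.0336) at 3.23 log2 CPM per the authors' deposited table, with a derived interval from -1.20 to -0.27. It occupies 1351688 to 1354096 of chromosome 4, minus strand. AOP3, the neighbouring paralog, and FMO GS-OX1, which oxygenates the side chain, had no row.

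In core synthesis, no gene of 11 was called by the edgeR test per the authors' deposited table, where 82.5% of all genes were not called. At an unadjusted p of 0.05, 2 core genes were lower (18.2%, against 12.6% of all genes) and 0 higher (against 17.1%). These were GGP1, a peptidase gene that processes the glutathione conjugate (log2 fold change -0.40, adjusted p = 0.0815), and UGT74C1, a glucosyltransferase gene of the aliphatic branch (-0.35, adjusted p = 0.0798), per the authors' deposited table. Their derived intervals were -0.72 to -0.08 and -0.62 to -0.07. UGT74C1 overlaps genes on the opposite strand by 265 and 40 bp. SUR1, the C-S lyase gene of both branches, stood at -0.08 and UGT74B1, the main glucosyltransferase gene, at -0.14 per the authors' deposited table. Of the 4 indolic members none was called by the edgeR test per the authors' deposited table, also with 0 at an unadjusted p of 0.05.

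The first indolic enzymes, CYP79B2 and CYP79B3, turn tryptophan into indole-3-acetaldoxime. CYP79B2 had a log2 fold change of 0.50 (adjusted p = 0.628) and CYP79B3 one of -0.05 (adjusted p = 0.961) per the authors' deposited table. Their intervals were among the widest of the members, from -0.79 to 1.79 and from -0.97 to 0.88. CYP83B1, next in the indolic branch, stood at -0.24 (adjusted p = 0.609), and its aliphatic counterpart CYP83A1 at 0.39 (adjusted p = 0.442) per the authors' deposited table. The sulfotransferase genes SOT16 (indolic), SOT17 and SOT18 (aliphatic) stood at 0.18, 0.12 and -0.005 per the authors' deposited table. SOT16 and SOT18 lie 151 bp apart on opposite strands.

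Of the 9 chain elongation genes, 2 had a row and neither was called by the edgeR test per the authors' deposited table, with 0 at an unadjusted p of 0.05. Over all genes 82.5% were not called, and at an unadjusted p of 0.05, 12.6% were lower and 17.1% higher. BCAT3, a plastid aminotransferase gene, stood at -0.17 (adjusted p = 0.193) and IPMI-LSU1, the large subunit gene of isopropylmalate isomerase that also serves leucine synthesis, at -0.14 (adjusted p = 0.255) per the authors' deposited table. Both were measured tightly, with intervals from -0.34 to 0.01 and from -0.31 to 0.03. The other 7, MAM1, MAM3, BCAT4, IPMI-SSU2, IPMI-SSU3, IPMDH1 and BAT5, were not analysed here for want of a row. So were CYP79F1, CYP79F2, FMO GS-OX1 and AOP3. All 11 members without a row belong to the aliphatic branch, of whose 18 members 7 had one. The share of members with a row, 68.6%, lies near that of all protein-coding genes on the nuclear chromosomes, 70.3%, and the authors' filter on low counts is not stated in the sources used here.

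Members differed in how well they were measured. The implied standard error exceeded that of 90% of the genes nearest in abundance for 7 of 24 members, which were CYP79B2, CYP79B3, CYP83A1, CYP83B1, UGT74B1, PEN2 and ESM1. The median percentile over the 24 was 81.8. This set holds 3 of the 4 indolic members. The labelled bud stage differs between the lines, and its part in this spread was not tested. Per length, 8 members lay above percentile 90 of all genes, and 3 (CYP79B2, CYP79B3 and SOT17) lay below percentile 25.

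Related genes were compared in sequence, since reads from a stretch they share could be counted for either. TGG1 and TGG2, 3674 bp apart on chromosome 5, share 80.7% of their coding sequence, and the longest identical stretch of their transcripts is 55 bp, shorter than the 150 bp reads. GTR1 and GTR2 share 75% with a longest stretch of 38 bp, and SOT16 and SOT18 share 77.8% with 32 bp. NSP1 is less certain, because it shares a stretch of 366 bp with its neighbour NSP4 and 91.6% of its coding sequence with NSP3. NSP4 stood at -0.61 (adjusted p = 0.361) per the authors' deposited table, and NSP3 had no row.

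**Figure D3:**
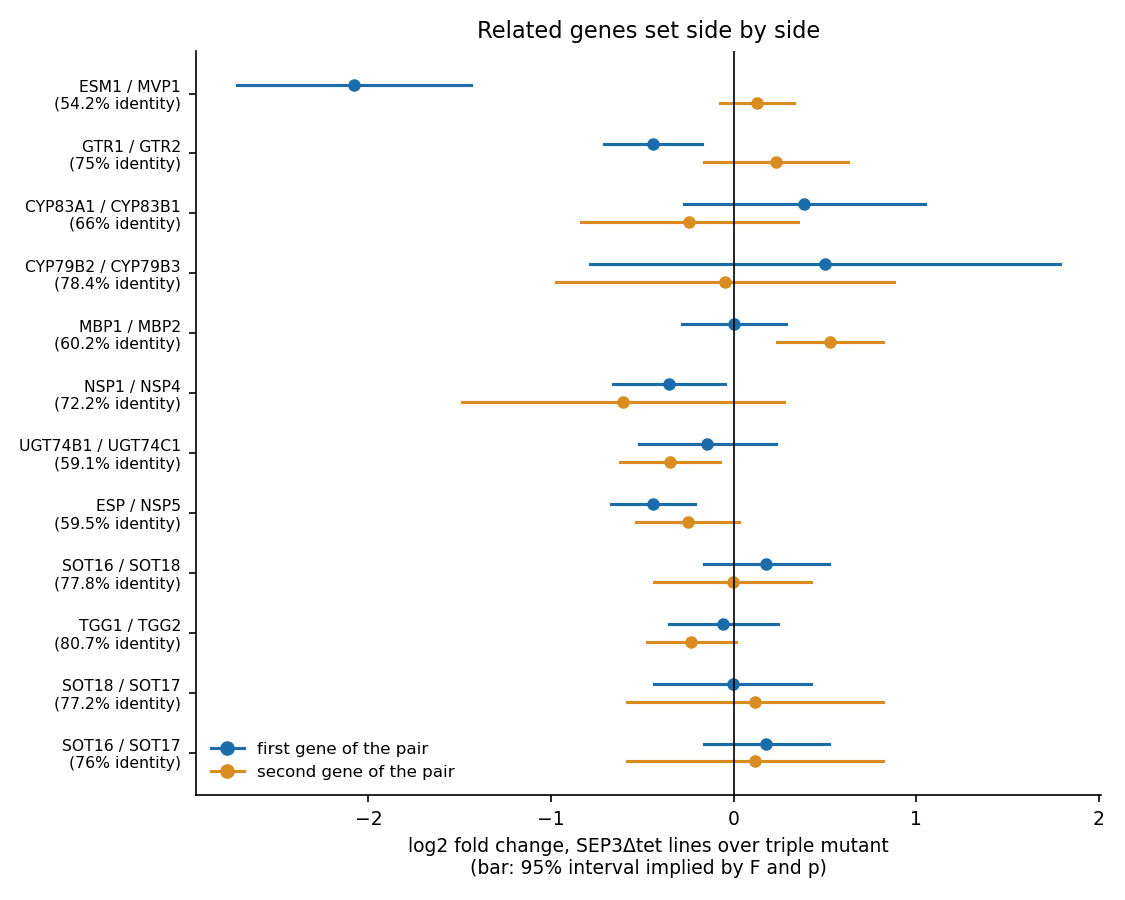
Log2 fold change (SEP3Δtet lines over the triple mutant) of related genes, with 95% intervals implied by F and p; the percent in brackets is the identity of the coding sequences. ESM1 (-2.08) and its relative MVP1 (0.13) differ most, GTR1 (-0.44) and GTR2 (0.23) come next, and SOT16 (0.18) and SOT17 (0.12) differ least.

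Of the transcription factors and other regulators of the pathway, MYC2 was the 1 that passed the test. MYC2, a bHLH factor of jasmonate signalling that acts with MYC3, MYC4 and the MYB factors, rose 1.68-fold (log2 fold change 0.75, adjusted p = 0.0191) per the authors' deposited table. MYC3 stood at -0.22 (adjusted p = 0.196) and MYC4 at -0.10 (adjusted p = 0.727) per the authors' deposited table. MYB28, the main factor for the aliphatic branch, stood at 0.02 (adjusted p = 0.970) with an interval from -0.46 to 0.50, and MYB34, an indolic factor, at -0.44 (adjusted p = 0.0594) per the authors' deposited table. The sulfur response factor gene SLIM1 stood at -0.10, IQD1 at 0.11 and OBP2 at -0.16 per the authors' deposited table. In all, 1 of 8 measured regulators rose, 0 fell and 7 were not called (87.5%, against 82.5% of all genes) per the authors' deposited table. At an unadjusted p of 0.05, 1 regulator was lower and 1 higher per the authors' deposited table. Each is 12.5% of the list, against 12.6% lower and 17.1% higher over all genes. MYB29, MYB76, MYB51 and MYB122 had no row.

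Of 15 measured genes of further synthesis and modification steps, 1 rose, 0 fell and 14 were not called (93.3%, against 82.5% of all genes) by the edgeR test per the authors' deposited table. At an unadjusted p of 0.05, 1 gene of this list was lower and 2 were higher, FMO GS-OX4 and IGMT5, an indole glucosinolate methyltransferase gene (log2 fold change 1.43, adjusted p = 0.0596), per the authors' deposited table. These are 6.67% lower and 13.3% higher, against 12.6% and 17.1% of all genes. The gene that rose was FMO GS-OX4, one of the flavin monooxygenase genes that oxygenate aliphatic side chains, at 4.80-fold (log2 fold change 2.26, F = 160, adjusted p = 5.2e-06) per the authors' deposited table. Its relatives FMO GS-OX2 (-0.16), FMO GS-OX3 (0.34) and FMO GS-OX5 (-0.24) were not called per the authors' deposited table. The median of the list was -0.02. Among 9 measured genes of further breakdown steps, MBP2, the neighbour of MBP1 and a myrosinase-binding protein gene, rose 1.44-fold (adjusted p = 0.0163) per the authors' deposited table. NAI2, needed for the ER bodies that store beta-glucosidases, fell 1.85-fold (adjusted p = 0.00326) per the authors' deposited table. In this list 7 genes were not called (77.8%, against 82.5% of all genes).

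Glucosinolate synthesis draws on sulfate assimilation. Of 17 measured genes of that route and of the sulfur response, 1 rose, 1 fell and 15 were not called per the authors' deposited table, with a median of -0.10. The share not called was 88.2%, against 82.5% of all genes. The root-type sulfate transporter gene SULTR1;2 rose 7.19-fold at a low abundance of 1.96 log2 CPM (adjusted p = 5.2e-04) per the authors' deposited table. APR2, the main APS reductase gene, fell 1.38-fold (adjusted p = 0.0192) per the authors' deposited table. The APS kinase genes APK1 (0.10) and APK2 (0.37), which supply the sulfate donor for the last core step, were not called per the authors' deposited table.

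Because TGG1 and TGG2 are known from guard cells and from myrosin cells along the phloem, markers of these tissues are set beside the members. The stomatal list fell in part, with 4 of 12 genes lower, 0 higher, 8 not called and a median of -0.45 per the authors' deposited table. Over all genes 5.88% were called lower and 11.6% higher. TMM (-0.74), SPCH (-0.75), EPF2 (-0.69) and SCAP1 (-0.55) were those that fell per the authors' deposited table. FAMA, which specifies guard cells and myrosin cells, stood at -0.28 (adjusted p = 0.208). Also not called were KAT1 (-0.46), MYB60 (-0.32), GC1 (-0.44), SLAC1 (-0.29), HT1 (0.13), MUTE (-0.20) and EPF1 (-0.46) per the authors' deposited table. SCAP1 was no longer called after recentring (adjusted p = 0.0583). No phloem gene of 7 was called by the edgeR test, with 0 at an unadjusted p of 0.05 and a median of 0.12 per the authors' deposited table. At that unadjusted threshold 12.6% of all genes were lower and 17.1% higher, and 82.5% were not called after adjustment. Of 15 green tissue genes 14 fell and 0 rose, with a median of -0.58, and all 12 tapetum genes rose, with a median of 3.63, per the authors' deposited table. Examples from green tissue were LHCB1.4 (-1.54), LHCB1.2 (-1.04), LHCB1.1 (-1.40), LHCA4 (-0.63) and LHCA2 (-0.55), and from the tapetum AMS (3.47), TKPR1 (3.58), MYB80 (3.82), CYP704B1 (3.68) and LAP5 (3.88), all per the authors' deposited table. The decrease of ESM1 was larger than that of any green tissue or stomatal marker listed, while those of ESP and GTR1 were smaller than the median decrease of the green tissue list. The part of these tissues in the members' values was not tested.

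**Figure D4:**
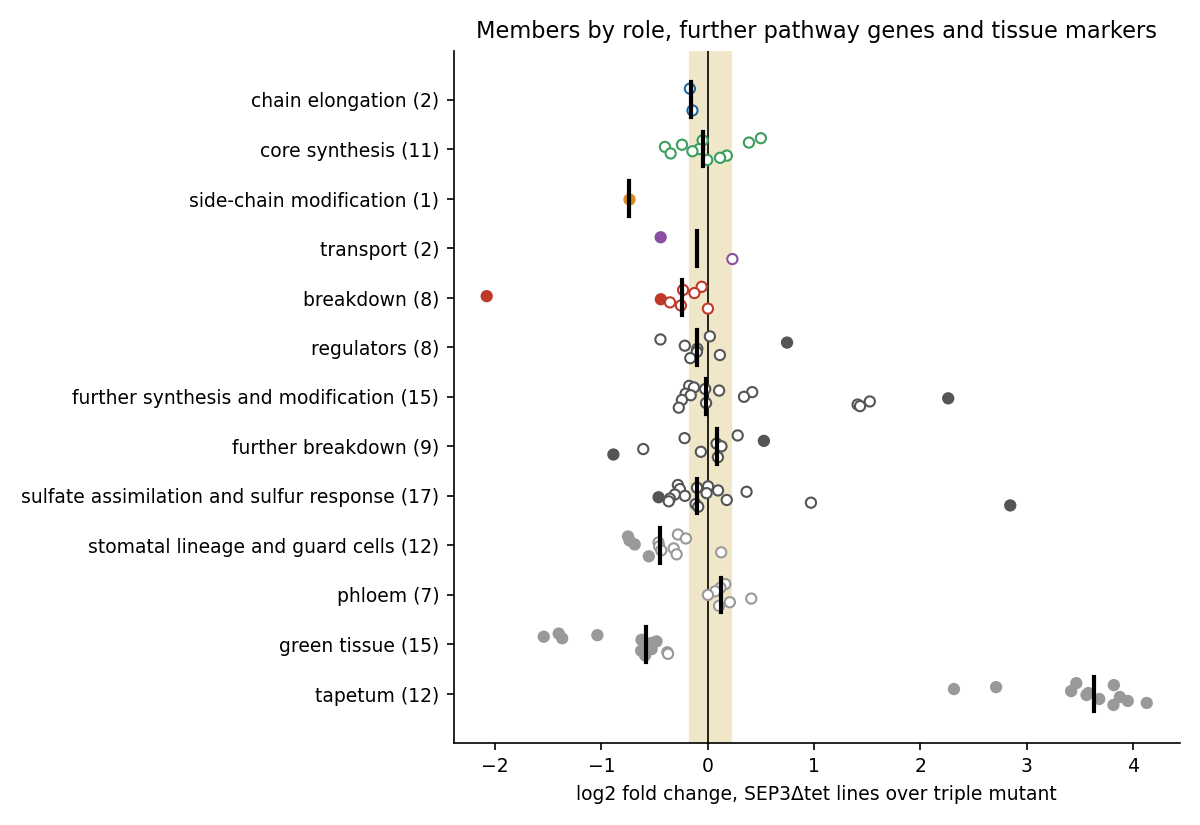
Log2 fold change (SEP3Δtet lines over the triple mutant) of members by role, of further pathway genes and of tissue markers, with the number measured in brackets; filled points have an adjusted p under 0.05, black bars are medians and the shaded band runs from the lower to the upper quartile of all genes. ESM1 and AOP2 lie lowest among the members. The median is -0.05 for core synthesis and -0.24 for breakdown, the latter below the band, which starts at -0.17. Green tissue markers lie between -1.54 and -0.37, and tapetum markers between 2.32 and 4.13.

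RNA of SEP3, which the transgene encodes, stood 4.82-fold above the triple mutant in the SEP3Δtet lines (log2 fold change 2.27, adjusted p = 1.1e-04) per the authors' deposited table. Its sign was also used, beside the name of the comparison, to read the direction of the fold changes. It is thus not an independent check of the labels.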

How the data were processed

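RNA of 3 SEP3Δtet lines was compared by the authors with the sep1 sep2 sep3 triple mutant. STAR, featureCounts, edgeR and TAIR10 are named in the submitters' processing notes, with no versions or roles. Per the file headers, the authors deposited 1 table that gives each gene its log2 fold change, mean log2 CPM, F score, p-value and adjusted p-value; it holds no value per library. A positive value was taken to mean more RNA in the SEP3Δtet lines, which the sign of SEP3 bears on. The adjusted p-values match, to within 1.8e-15, those that the Benjamini-Hochberg method gives for the deposited p-values of all 19777 genes. Calls use an adjusted p under 0.05.

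The denominator degrees of freedom were recovered by solving F against p (11.85 in 86.3% of the 19096 genes solved, tolerance 0.02). An approximate standard error is the absolute log2 fold change divided by the square root of F, and 95% intervals use the t distribution. The recovery was checked on simulated data built with this same relation. That check covers the arithmetic only, and how closely the relation holds for the authors' edgeR F was not tested. Spread percentiles compare a gene with the 500 genes next in abundance on each side. Gene positions, promoters and transcript lengths come from RefSeq TAIR10.1, where 19756 of the table's genes have a length. Python 3.11.15, pandas 2.3.3, scipy 1.17.1 and Biopython 1.88 were used. Members and lists were chosen with earlier results of these data known. Named are all members and regulators, FAMA, SEP3, and of each other list up to 5 called genes of smallest p. HA4, NSP4, MVP1, APK1, APK2, IGMT5, the relatives of FMO GS-OX4 and the other uncalled stomatal genes were added after their values were seen. The lines are called independent in the series text. The p-values are those of the authors' edgeR fit, for which the number of triple mutant libraries is not stated in the sources used here. They do not measure the spread between the 3 lines alone. Alternatives tried were an adjusted p of 0.01, Bonferroni, a log2 fold change of at least 1, a minimum of 1 log2 CPM, recentring on genes of at least 4 log2 CPM, and a shorter promoter window.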

Additional observations from a re-analysis of the deposited data

How the results depend on the processing

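The 4 lower members were also the 4 lower members with a minimum of 1 log2 CPM and after recentring by -0.04, and 0 members were higher under every alternative run. At an adjusted p of 0.01, 1 member (ESM1) was lower, 0 regulators and 1 sulfur gene were called. Where the absolute log2 change had to reach 1, 1 member (ESM1) was lower, 0 regulators, 0 lower genes of further breakdown and 1 sulfur gene were called. With Bonferroni adjustment these counts were 0 members, 0 regulators, 0 genes of further breakdown and 0 sulfur genes, and ESM1 missed the threshold (adjusted p = 1). Over all genes, 2294 higher and 1163 lower calls compare with 1482 and 419 at 0.01, 481 and 14 by Bonferroni, 1562 and 74 with the fold minimum, 1720 and 1098 with the abundance minimum and 2510 and 854 after recentring. With the 250 bases before the start alone, 6.12% of all windows held an AC element, 6.49% a G-box and 2.52% a CArG box. The member counts were not redone in this shorter window, so it does not show whether the member shares hold. No paired analysis was possible because the table holds no value per library; leaving out each line was not run for the same reason. Depth per library is unknown, and low members such as CYP79B2, CYP79B3 and SOT17 have wide intervals.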

Other observations

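No gene with a row among the 3 on each side of ESM1, ESP, GTR1 or AOP2 was called lower. Of the 3 protein-coding genes on each side of ESM1, 5 had a row per the authors' deposited table, and 0 of these were called lower. Over all genes 5.88% were called lower and 11.6% higher, so the absence of lower calls does not set these few neighbours apart. AT3G14220, the next gene after ESM1, stood at -0.09 (adjusted p = 0.582) per the authors' deposited table, while AT3G14200 (log2 fold change 1.31, adjusted p = 0.038) and RAP2.2 (0.29, adjusted p = 0.0384) were called higher. MVP1, the neighbour of ESP and a GDSL lipase gene related to ESM1, stood at 0.13 (adjusted p = 0.405) per the authors' deposited table. AOP1, the paralog beside AOP2, stood at 0.14 (adjusted p = 0.585) per the authors' deposited table. These genes were named after their values were seen.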
